A study of Homo sapiens with 2 samples.

Results

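The genes described here encode the enzymes and regulators of cholesterol and fatty acid synthesis. They were named from the pathway, as a list of 29 genes chosen with earlier results of these data known. Shares of members set beside all genes below are therefore descriptive. A gene was followed through the probe sets whose only annotated symbol was its own. Of the 29, 26 had such a probe set and 25 gave a signal above the floor defined below, among 19775 genes with such a probe set and 12705 measured genes on the arrays. Expression was measured in Eol1 cells, a human eosinophilic leukaemia line whose growth depends on the fusion kinase FIP1L1-PDGFRA. The Glivec group was 1 culture kept for 4 h with 100 nM Glivec, the drug imatinib, which blocks the kinases of ABL, KIT and the PDGF receptors. The untreated group was 1 culture without the drug, and the labels name no vehicle. Both were grown in serum-containing RPMI medium, and total RNA of each was hybridised to 1 Affymetrix array. With 1 array per group there is no replicate spread, no test was run, and "higher" and "lower" below describe these 2 arrays.

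Cholesterol is built from acetyl-CoA through mevalonate and farnesyl diphosphate to squalene, which is closed into lanosterol and then trimmed and reduced to cholesterol. Fatty acids are built from the same acetyl-CoA. The SREBP transcription factors, products of SREBF1 and SREBF2, drive both branches: SREBP-2 mainly the sterol genes and SREBP-1 mainly the fatty acid genes. When sterols are plentiful, INSIG proteins hold the SREBP precursors in the endoplasmic reticulum, and the target genes, INSIG1 itself among them, are less transcribed. NF-Y, which binds CCAAT boxes, is a common partner of SREBP at these promoters.

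The 5 upstream sequences printed here belong to 3 of the 4 members that were at least 1.5-fold lower with Glivec (HMGCS1, MSMO1 and INSIG1) and to both SREBP genes. Each is the 250 bases before a RefSeq transcript start in GRCh38.p14, given 5′ to 3′ on the gene's strand. Capitals mark CCAAT or its reverse ATTGG, the E-box CACGTG and the sterol element TCACNCCAC. HMGCS1 lies at chr5:43313413-43313662 (minus strand), MSMO1 at chr4:165327419-165327668 (plus), INSIG1 at chr7:155297628-155297877 (plus), SREBF1 at chr17:17836987-17837236 (minus) and SREBF2 at chr22:41832855-41833104 (plus).
HMGCS1: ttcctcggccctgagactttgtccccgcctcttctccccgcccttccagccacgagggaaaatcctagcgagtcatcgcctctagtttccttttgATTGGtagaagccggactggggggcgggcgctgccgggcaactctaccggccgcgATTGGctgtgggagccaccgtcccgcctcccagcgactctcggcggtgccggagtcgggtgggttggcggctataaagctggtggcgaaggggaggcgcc
MSMO1: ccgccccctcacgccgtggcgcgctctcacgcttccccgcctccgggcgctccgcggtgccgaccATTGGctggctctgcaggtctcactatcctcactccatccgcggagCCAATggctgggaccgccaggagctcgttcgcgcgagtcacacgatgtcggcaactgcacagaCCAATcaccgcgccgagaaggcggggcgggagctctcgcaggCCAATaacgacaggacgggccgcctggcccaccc
INSIG1: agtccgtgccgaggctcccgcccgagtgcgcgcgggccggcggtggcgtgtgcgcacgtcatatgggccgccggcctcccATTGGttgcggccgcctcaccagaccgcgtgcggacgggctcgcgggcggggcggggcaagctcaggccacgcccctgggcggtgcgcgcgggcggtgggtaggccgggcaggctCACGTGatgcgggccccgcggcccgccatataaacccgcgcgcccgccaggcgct
SREBF1: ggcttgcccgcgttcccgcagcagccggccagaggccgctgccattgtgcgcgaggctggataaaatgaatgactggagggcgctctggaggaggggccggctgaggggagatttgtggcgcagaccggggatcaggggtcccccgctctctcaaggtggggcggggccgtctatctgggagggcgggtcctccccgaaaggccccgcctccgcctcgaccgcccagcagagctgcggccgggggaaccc
SREBF2: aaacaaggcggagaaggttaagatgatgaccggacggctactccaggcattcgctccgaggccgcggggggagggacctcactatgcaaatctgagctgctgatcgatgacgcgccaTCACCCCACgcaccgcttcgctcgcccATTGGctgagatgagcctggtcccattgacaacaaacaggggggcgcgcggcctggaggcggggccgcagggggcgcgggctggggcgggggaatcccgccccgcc

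These sequences differ in what they hold. The MSMO1 stretch has 4 CCAAT boxes and the HMGCS1 stretch 2. RefSeq gives HMGCS1 another start, at which the 250 bases upstream (chr5:43313182-43313431) hold 0. The INSIG1 stretch has 1 CCAAT box and an E-box at position -55 from the start, and the SREBF2 stretch has 1 CCAAT box and the sterol element at position -133. None of the 3 motifs is in the SREBF1 stretch, which covers 1 start, and no other SREBF1 start was searched. Windows of 300 bases (250 before and 50 after the start) were available for 25 of the 29 members, 7 of them with several starts. They were searched on both strands. No window was available for ACAT2, FASN, FDFT1 or SQLE, so SQLE, the remaining member at least 1.5-fold lower, is not in the motif counts. The 25 members with a window are not the 25 measured members. They include CYP51A1, ELOVL6 and FADS1, which were not measured and hold no CCAAT box. A CCAAT box was in at least 1 window of 20 of the 25 members. The share was 43.1% of the 10236 measured genes with a window and 39.7% of all 27305 genes with a window. Shares for the other motifs are of the measured genes. The GC box GGGCGG was in 24 of 25, against 73.4%, the E-box in 3 (LSS, SC5D and INSIG1), against 12.5%, and the sterol element in SREBF2 alone, against 1.46%. A match is a string of letters and not a measured site, and no binding was measured here. Only these exact letters within the windows were searched. Absence of a match therefore does not show that a promoter lacks a site.

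The deposited values are MAS5 signals on a linear scale, 1 per probe set, where a probe set is a group of oligonucleotides for 1 transcript region. Both arrays had been brought to the same trimmed mean of 100.01. A floor of 13.7, the median of all non-control signals, was applied before log2 was taken, and a gene was represented by its brightest probe set, with cross-hybridising (_x_at) probe sets used only in the absence of others. The median log2 ratio of Glivec over untreated was 0.10 over all measured genes, so member ratios are best read against that value rather than against 0. The 18 hybridisation spike-in probe sets had a median log2 ratio of 0.74, and the median over all genes became -0.59 after scaling to these spike-ins. That scaling subtracts nearly the same amount from every gene and puts 89.98% of all genes below 0, so signs under it are read against the -0.59 of all genes. Between probe sets of the same gene the pooled SD of the log2 ratio was 0.36 over the 15 members with several probe sets above the floor on both arrays. This spread covers probe differences only, not differences between cultures.

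The label was checked against markers. Of 10 eosinophil markers with a probe set, 6 exceeded the floor on at least 1 array, with PRG2 (granule major basic protein) at 6302 with Glivec and 4744 untreated and RNASE2 at 2872 and 2146 in the same order. IL5RA, SIGLEC8, GATA1 and PRG3 were below the floor on both arrays. EPX, below the floor untreated, was at 27.2 with Glivec and 12.6 untreated, and CEBPE at 126 and 103 in the same order. GATA2 was lower, at 94.4 with Glivec against 208 untreated, but its 3 probe sets had log2 ratios from -1.14 to 0.20. CLC, below the floor with Glivec, was at 13.2 against 19.4 untreated. Of the 6 eosinophil markers, 4 were thus higher and 2 lower. Of 6 myeloid markers, 5 had log2 ratios above 0, against 59% of all measured genes, and the median was 0.47. SPI1 was 2.31-fold higher, and CSF2RB, the 1 below 0, was 1.78-fold lower. The T and NK cell genes CD3D, CD3G, CD2 and GNLY and the B cell genes MS4A1 and PAX5 were below the floor on both arrays, whereas CD3E was at 9.48 with Glivec and 21.0 untreated and CD79A at 94.9 with Glivec and 60.03 untreated. The summed marker signal was 9473 with Glivec and 7257 untreated for eosinophil genes (PRG2 and RNASE2 together hold 9174 and 6890 of these), 5035 and 3583 for 6 myeloid genes, 730.0 and 888 for 6 T and NK genes (NKG7 holds most of it), 101 and 76.3 for 3 B cell genes (CD79A holds most of it), and 43.5 and 19.1 for 3 erythroid genes. In the erythroid list, HBB read 30.5 with Glivec and 6.93 untreated, the latter below the floor, on the probe set that represents it. Its 2 probe sets above the floor on both arrays were level, at -0.06 and 0.01. The part of these marker shifts in the member ratios was not tested. In bulk RNA, fewer cells of a type and less RNA per cell cannot be told apart. As a check of the drug response, MYC, which lies downstream of the kinase, had a signal of 557 with Glivec and 3781 untreated, 6.78-fold lower. PIM1 and DUSP6 were 8.06-fold and 6.05-fold lower. These 3 genes were named by hand and not by a rule, and 0.677% of all measured genes were at least 3-fold lower.

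Sterol synthesis transcripts differed most at a few steps. SQLE, HMGCS1, MSMO1 and INSIG1 were 1.73-fold to 2.43-fold lower with Glivec. Within 1.5-fold were 18 of the 25 measured members, against 9937 of all 12705 measured genes, so most genes on the arrays were within it too. SREBF1 went the other way and was 2.04-fold higher. Of the 25 measured members, 2 were at least 2-fold lower (8% of them, against 2.63% of all measured genes) and 1 was at least 2-fold higher (4%, against 3.13%). With spike-in scaling the counts were 8 lower and 0 higher (against 19.3% and 0.335% of all genes), and the 1 higher gene was under 2-fold in 5 further alternatives. At 1.5-fold the counts were 4 lower (16.0%, against 8.33%) and 3 higher (12.0%, against 13.5%). The log2 ratio was below 0 for 18 of 25 members (72.0%), against 41% of all measured genes. The members' median was -0.14, which is -0.24 relative to the median of all measured genes, and their ratios ran from -1.28 for SQLE to 1.03 for SREBF1.

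**Figure D1:**
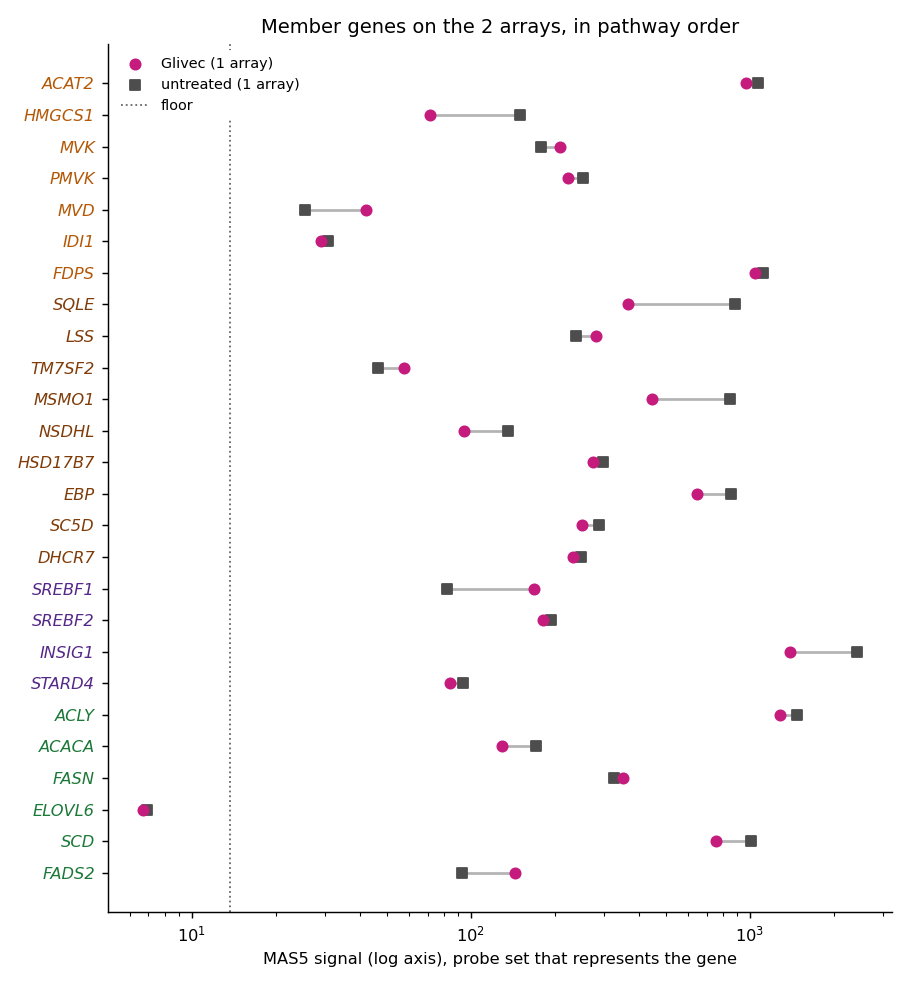
MAS5 signal (log axis) of the 26 members with a probe set, in pathway order, on the Glivec array (circles) and the untreated array (squares), 1 array each. The dotted line is the floor of 13.7, and gene names are coloured by pathway branch. SQLE, HMGCS1, MSMO1 and INSIG1 show the wide gaps with the circle on the left, SREBF1 the wide gap with the circle on the right, and ELOVL6 lies below the floor.

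In the stretch from acetyl-CoA to farnesyl diphosphate, HMGCS1 stood out. It encodes cytosolic HMG-CoA synthase, which makes the precursor of mevalonate. HMGCS1 had a signal of 71.5 with Glivec and 150.5 untreated, 2.10-fold lower. Its other probe set read 72.5 with Glivec and 121 untreated, 1.67-fold lower. Both probe sets were lower with Glivec, but the mean of their log2 ratios, -0.90, was short of 2-fold.

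The neighbouring enzymes were nearly level. ACAT2, the thiolase that joins acetyl-CoA units ahead of HMGCS1, read 967 with Glivec and 1068 untreated. PMVK, the phosphomevalonate kinase, read 223 and 252 in the same order. FDPS, which makes farnesyl diphosphate, was bright on both arrays, with 1037 with Glivec and 1112 untreated. All 3 had log2 ratios between -0.18 and -0.10. For the mevalonate kinase MVK the probe sets disagreed: the brightest read 209 with Glivec and 179 untreated (log2 ratio 0.23), and 2 dimmer ones were at -0.47 and -0.10. MVD, the decarboxylase that yields isopentenyl diphosphate, was 1.64-fold higher from a low signal of 42.1 with Glivec and 25.6 untreated, on its only probe set, and was at -0.02 with spike-in scaling, where all genes had a median of -0.59.

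IDI1, the isomerase of isopentenyl diphosphate, depended on the choice of probe set. The probe set that represents it read 29.2 with Glivec and 30.9 untreated, a log2 ratio of -0.08. The 2 brightest IDI1 probe sets carry the _x_at suffix, which marks probes that may match other transcripts. They read 509 and 478 with Glivec and 1038 and 932 untreated, 2.04-fold and 1.95-fold lower. The third _x_at probe set, dim, was at 0.48. With _x_at probe sets treated like the rest, a choice made after these values were seen, IDI1 would join the members at least 2-fold lower, at -1.03. The 7 genes of this stretch had a median log2 ratio of -0.10, with 5 below 0.

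Between squalene and cholesterol, SQLE was the lowest member of all. SQLE encodes squalene epoxidase, the step that commits squalene to the sterol ring and a point of control of the pathway. Its signal was 364 with Glivec and 883 untreated, 2.43-fold lower. Its 2 other probe sets above the floor read 103 with Glivec against 229 untreated, and 69.8 with Glivec against 183 untreated, with log2 ratios of -1.16 and -1.39. All 3 were thus more than 2-fold lower, and another, below the floor with Glivec, was also lower (7.61 against 21.8 untreated). SQLE was the member at least 2-fold lower in each alternative processing run here, apart from the 3-fold threshold.

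MSMO1, the oxidase that starts removal of the methyl groups next to the sterol hydroxyl, had a signal of 447 with Glivec and 847 untreated. That is 1.90-fold lower, on a single probe set. NSDHL acts right after MSMO1, and both of its probe sets were lower to the same degree, with 94.3 with Glivec against 136 untreated on the brighter (log2 ratio -0.53) and -0.54 on the other. EBP, the sterol isomerase, read 643 with Glivec and 856 untreated (-0.41). A second EBP probe set was at -0.32 and a dimmer one at 0.33. HSD17B7, the ketoreductase of the same demethylation complex, was nearly level at 274 with Glivec and 297 untreated, on an _x_at probe set.

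The remaining sterol enzymes showed no shared shift. LSS, which closes the ring to lanosterol, read 281 with Glivec and 238 untreated, with log2 ratios of 0.24 and 0.34 on its probe sets above the floor. TM7SF2, a sterol reductase, read 57.5 and 46.7 in that order. Both were above 0; with spike-in scaling they were at -0.50 and -0.44, still above the median of all genes. SC5D, the desaturase near the end of the pathway, was at -0.20 and -0.04 by its probe sets. DHCR7, which performs the final reduction to cholesterol, was at -0.10 and -0.40. Over the 9 measured sterol genes the median was -0.20 and 7 were below 0. FDFT1 (squalene synthase), CYP51A1 (lanosterol demethylase) and FADS1 had no probe set of a single symbol and are not analysed here.

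**Figure D2:**
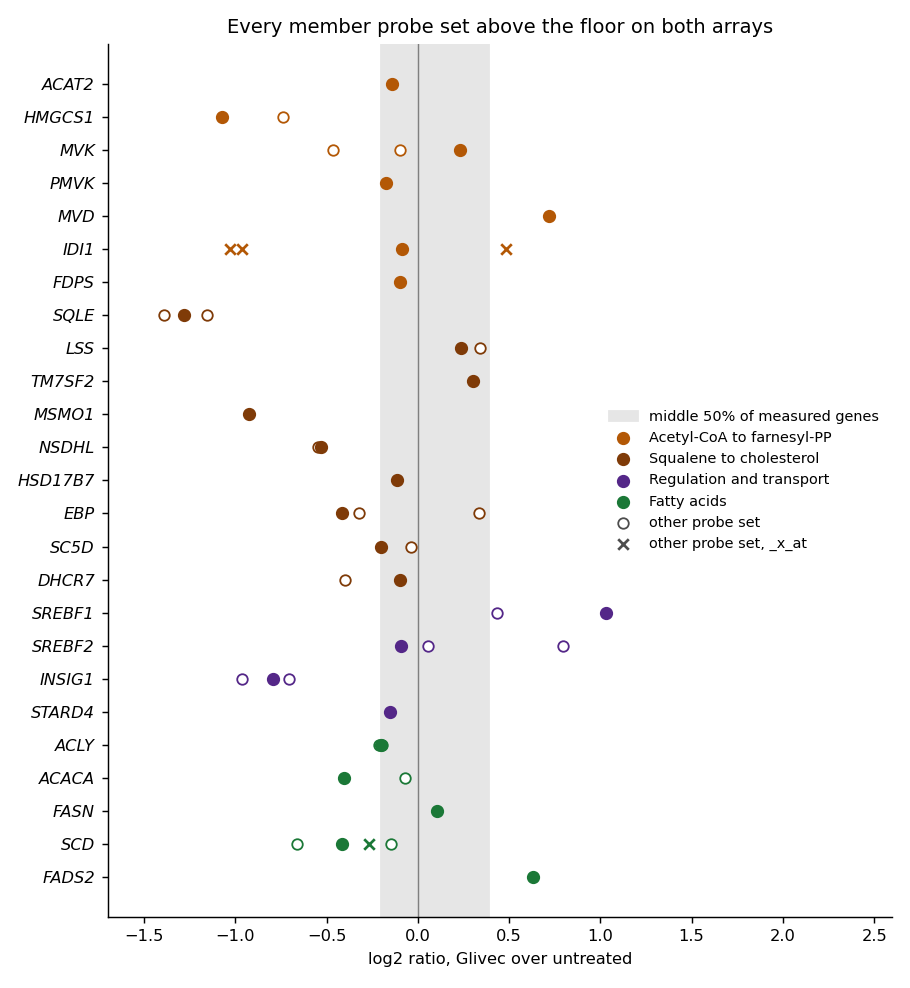
Log2 ratio of Glivec over untreated for each of the 50 member probe sets above the floor on both arrays. Filled circles represent the gene, open circles are its other probe sets, crosses are other _x_at probe sets, and the grey band holds the middle 50% of all measured genes (-0.20 to 0.39). The probe sets of SQLE, HMGCS1 and INSIG1 lie together left of the band, whereas those of IDI1, SREBF2 and MVK are spread.

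Regulators of the pathway split. INSIG1 was the brightest member and lower on all 3 of its probe sets. They read 1393, 973 and 536 with Glivec, against 2410, 1894 and 873 untreated, 1.73-fold, 1.95-fold and 1.63-fold lower. SREBF1 was higher on both of its probe sets. The brighter read 168 with Glivec and 82.4 untreated, 2.04-fold higher, and the dim one 23.1 with Glivec and 17.1 untreated, a log2 ratio of 0.43. Since SREBF1 is barely past 2-fold, its call is lost at 0.99 with quantile normalization, 0.93 with median centring, 0.95 after loess, 0.95 with the 75th percentile floor, 0.29 with spike-in scaling and 0.73 when its probe sets were averaged.

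SREBF2, the main sterol regulator, gave no single answer. Its brightest probe set read 182 with Glivec and 194 untreated (log2 ratio -0.09). Another read 149 with Glivec and 85.7 untreated (0.80), and the third was level (0.05). STARD4, a carrier that moves cholesterol between membranes, read 84.1 with Glivec and 93.4 untreated (-0.15).

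On the probe sets that represent them, fatty acid synthesis genes differed by less than 1.5-fold, with FADS2 the exception. FADS2, the desaturase that starts polyunsaturated fatty acid synthesis, had a signal of 144 with Glivec and 92.6 untreated, 1.55-fold higher. The FADS2 ratio was -0.11 with spike-in scaling, against -0.59 for all genes. It rests on 1 probe set, since the other was below the floor on both arrays, at 2.79 with Glivec and 9.74 untreated. ACLY, which supplies cytosolic acetyl-CoA from citrate, read 1283 with Glivec and 1476 untreated. Its 3 probe sets were between -0.22 and -0.20, the tightest agreement among members with 3 probe sets above the floor. FASN, the fatty acid synthase, was close to level, at 349 with Glivec and 326 untreated (0.10).

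ACACA, the carboxylase that makes malonyl-CoA, read 129.7 with Glivec and 171 untreated, with log2 ratios of -0.40 and -0.07 on its probe sets. SCD, which makes monounsaturated fatty acids, read 754 with Glivec and 1006 untreated, and its 4 probe sets ran from -0.66 to -0.14. Every SCD and ACLY probe set was thus lower with Glivec, none by 2-fold. The elongase ELOVL6 was below the floor on all 3 probe sets, with signals up to 7.12 with Glivec and 6.94 untreated, and has no ratio. The median over the 5 measured fatty acid genes was -0.20.

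Agreement between probe sets was partial. Of the 15 members with several probe sets above the floor on both arrays, 9 had all of them lower with Glivec, 2 (LSS and SREBF1) had all of them higher, and 4 (MVK, IDI1, EBP and SREBF2) had both signs. Over all 5603 such genes the shares were 26.2% all lower, 35.4% all higher and 38.5% with both signs. In total 37 of the 50 member probe sets were lower and 13 higher, against 43.9% and 56.1% of 21067 named probe sets. Another 8 members rest on 1 probe set in all, MSMO1 and MVD among them.

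Related lipid genes outside the list were followed to see how far the pattern reached. In 4 lists with 62 genes, 52 were measured, and 1 was at least 2-fold higher (1.92%, against 3.13% of all measured genes) and 0 at least 2-fold lower (against 2.63%). That gene was ABCA1, which exports cellular cholesterol and is a target of the sterol-sensing LXR receptors. ABCA1 had a signal of 276 with Glivec and 134 untreated, 2.06-fold higher, with a second probe set at 1.07. It was short of 2-fold at 0.31 with spike-in scaling and 0.95 with median centring. The lowest of the 52 was the fatty acid gene ACSL1, 1.95-fold lower, with a second probe set at -0.87. With median centring ACSL1 was at -1.06, past 2-fold. Over all 52 the median log2 ratio was 0.11, close to the 0.10 of all measured genes.

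The list of SREBP control and sterol handling genes had 12 of 14 members above 0 (against 59% of all measured genes) and a median of 0.24, or -0.50 with spike-in scaling, against -0.59 for all genes. The SREBP escort SCAP was at 0.10, INSIG2 at 0.14, the proteases MBTPS1 and MBTPS2 at -0.28 and -0.10, and the cholesterol transporter NPC1 at 0.45. INSIG2 was thus not lower in the way INSIG1 was. Other sterol and isoprenoid genes had a median of -0.06 over 10 and glycerolipid genes -0.08 over 11, which are -0.16 and -0.17 relative to all genes and near the -0.20 of the members up to farnesyl diphosphate. Other fatty acid genes had a median of 0.17 over 17. At 1.5-fold, 4 of the 52 related genes were lower (7.69%, against 8.33% of all measured genes) and 6 were higher (11.5%, against 13.5%).

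**Figure D3:**
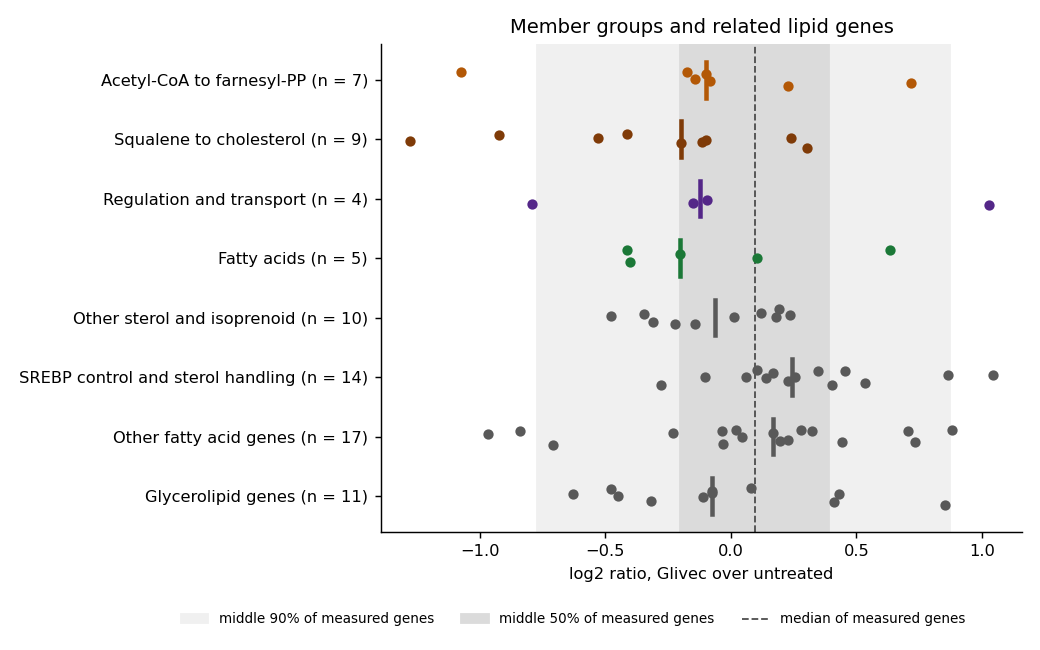
Log2 ratio of Glivec over untreated for each measured gene, in the 4 member groups (coloured) and 4 lists of related lipid genes (grey), with a vertical bar at each median. The dashed line is the median of all measured genes (0.10), and the bands hold the middle 50% and 90% of them. All 4 member medians lie left of the dashed line, between -0.20 and -0.10, as do those of other sterol genes (-0.06) and glycerolipid genes (-0.08), and the other 2 related lists are at 0.17 and 0.24.

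Of the 7 members at least 1.5-fold different, the 4 lower ones stayed below 0 and below the median of all genes in every processing. INSIG1 was between -1.53 and -0.79 and MSMO1 between -1.66 and -0.89. With spike-in scaling 89.98% of all genes were below 0, so that sign alone says little there. The 7 were picked by their ratios on the same arrays that every processing reuses, so this is no independent check. SREBF1 stayed above 0, between 0.29 and 1.03. MVD and FADS2, where they had a value, were above the median of all genes in each. The size of each difference has no error from cultures, since there is 1 array per group.

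**Figure D4:**
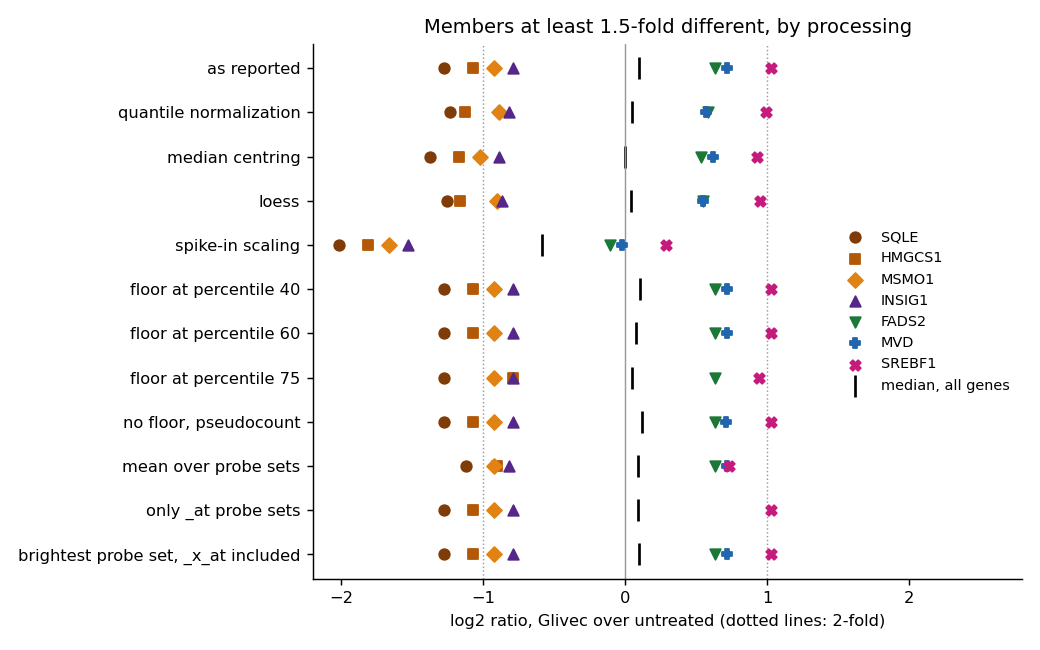
Log2 ratio of Glivec over untreated for the 7 members at least 1.5-fold different, as reported and under each alternative processing that changes values. Each symbol is a gene, black bars are the median of all measured genes and dotted lines mark 2-fold. SQLE, HMGCS1, MSMO1 and INSIG1 stay left of the bars, and SREBF1 stays right of them.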

How the data were processed

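Signal intensities of 54675 probe sets on 2 arrays, deposited by the authors on a linear scale, had been computed with MAS5, per the submitters' processing notes; the MAS5 version was not given in the sources used here. No detection calls were used. Probe sets were named from the platform annotation, which can be old: 41091 non-control probe sets had 1 symbol, 1801 had several and 11777 had none; 62 probe sets are controls and were left out of gene values. The members, lists and thresholds were chosen with earlier results of these data known. All members are accounted for. They were described in full when at least 1.5-fold different or regulators, and related genes were named when at least 2-fold different or as examples chosen after their values were seen. Log2 ratios of floored signals were computed with Python 3.11.15, numpy 2.4.6, pandas 2.3.3 and statsmodels 0.14.6, and the calculation was tested on simulated data. Figures used matplotlib 3.10.9. Promoters and coordinates are from RefSeq tables of GRCh38.p14. Precision is limited by the number of arrays.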

Additional observations from a re-analysis of the deposited data

How the results depend on the processing

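No paired analysis was possible because there is 1 array in each group, and so no replicate could be left out either. The count of members at least 2-fold higher was 0 with quantile normalization, median centring, loess (span 0.3), the 75th percentile floor, spike-in scaling, the mean over probe sets and a 3-fold threshold, and 3 at 1.5-fold. The count at least 2-fold lower was 8 after scaling to the spike-ins, 1 with the 75th percentile floor, 1 when probe sets were averaged, 3 with centring, 4 at 1.5-fold and 0 at 3-fold. The shares of all genes at least 2-fold lower were 19.3% with spike-in scaling, 2.27% with that floor, 2.15% with averaging and 3.53% with centring. The members' median was -0.24 with centring and -0.88 with spike-in scaling, where the medians were -0.84 from acetyl-CoA to farnesyl diphosphate, -0.94 for sterol genes, -0.86 for regulators and -0.94 for fatty acid genes. With only _at probe sets they were -0.43 for sterol genes (6 genes) and -0.40 for fatty acid genes (1 gene). Centring and spike-in scaling shift genes above the floor alike by construction; otherwise the cause was not tested. Including _x_at probe sets was chosen after seeing the data. No member past 2-fold changed sign under any alternative, but every alternative reuses the same arrays on which these members were picked. Floors at the 40th and 60th percentile and no floor with a pseudocount of 0.269 left both counts as reported. Near the floor, ratios are compressed.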

Other observations

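The 10975 genes above the floor on both arrays were divided into 4 equal classes of mean signal. In the brightest class (439 and above) the 8 members had a median log2 ratio of -0.41, against 0.03 for the 2744 genes of the class. In the dimmest class (up to 60.5) the 3 members had a median of 0.30, against 0.20 for the class. The 2 classes between held 6 and 8 members with medians of -0.28 and -0.10, against 0.12 and 0.03 for the genes of those classes. The members' medians follow no order by signal. Those of all genes were higher in the dimmer classes, at 0.20, 0.12, 0.03 and 0.03 from the dimmest to the brightest. None of these medians was tested.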
